A study of Homo sapiens with 14 samples.

Results

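The 50 genes described here encode the machinery that brings newly made proteins into the endoplasmic reticulum (ER), folds them there, removes those that fail to fold and packs the rest into vesicles for the Golgi. They were picked by gene symbol out of the 27819 genes shared by the 4 count tables. By role, 24 act in translocation, 10 in folding, 6 in degradation and 10 in the COPII coat. RNA was sequenced from CWR22Rv1, a single human prostate cancer cell line, after 72 h of treatment. Fucotrim I was given at 30 μM and Fucotrim II at 60 μM, with SGN-2FF at 100 μM, P-SiaFNEtoc at 2 μM and DMSO as the vehicle. Each group has 3 libraries except Fucotrim II, of which 2 were analysed here. Fucotrim I, Fucotrim II and SGN-2FF are metabolic inhibitors of fucosylation, and P-SiaFNEtoc blocks sialylation. The labels call the libraries of a group biological repeats, and the same 3 DMSO libraries served as the reference for all 4 inhibitors. The questions were which steps of the secretory route changed with each inhibitor, and whether the steps changed alike.

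Secreted and membrane proteins enter the ER while they are still being made. The signal recognition particle brings the ribosome to its receptor, the Sec61 channel threads the chain across the membrane, signal peptidase trims its leader, and chaperones and disulfide isomerases fold it. Misfolded chains go back to the cytosol for degradation, and folded cargo leaves in vesicles shaped by the COPII coat. The unfolded protein response is the known regulator of many of these genes, acting through short promoter elements that ATF6 and XBP1 bind.

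Depth ran from 12553094 to 19981453 counts on genes per library. The 6 prostate epithelial markers reported here (KLK2, KLK3, HOXB13, FOLH1, KRT8 and KRT18) were present in every library, with a summed level of 1324 to 1409 CPM (counts of a gene scaled by TMM to a common library size) in DMSO and 1644 to 2215 CPM across the treated libraries. Of these 6 markers, 6 rose with Fucotrim I, 6 with Fucotrim II, 6 with SGN-2FF and 5 with P-SiaFNEtoc, and 0 fell against DMSO. The 8 markers of blood, endothelial and stromal cells summed to between 25.7 and 39.2 CPM per library. CD3E was at 0 throughout, PTPRC never exceeded 3 counts and PECAM1 never exceeded 1 count. COL1A1 had 209 to 485 counts per library, CD68 had 64 to 128 and LUM had 27 to 73. COL3A1 never exceeded 19 counts and DCN never exceeded 13. Of 4 such markers tested, 1 rose with Fucotrim II and 1 with SGN-2FF, and 0 fell with either. With Fucotrim I and P-SiaFNEtoc 0 were called. The share of counts on 15 mitochondrially encoded genes was 5.98% to 7.03% in DMSO, 8.67% to 14.2% with Fucotrim I, 12.1% to 17.0% with Fucotrim II, 8.27% to 8.68% with SGN-2FF and 6.11% to 6.83% with P-SiaFNEtoc. Its part in the results that follow was not tested. These are bulk libraries, so fewer cells that express a gene and less of its RNA per cell cannot be told apart.

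Promoter sequence was read for 43 of the members from RefSeq (GRCh38.p14), as windows from 250 bases before to 50 bases after each transcription start, and searched on both strands. The ER stress response element (ERSE) was searched as CCAAT, 9 bases of any kind and CCACG. It lay in at least 1 window of 25 of 27305 genes (0.0916%), and 3 of these genes were members: CANX, CRELD2 and PDIA6. The windows of these 3 are shown because they hold the match. All 3 fell with Fucotrim I, as did 34 of the 49 members tested, and a link between match and fall was not tested. SRPRA, TRAM1, SPCS1, DERL1, DERL3, SEC24D and PDIA3 had no window and were not searched. Capitals mark the match. It runs on the printed strand in CANX and PDIA6, and on the opposite strand in CRELD2.
CANX, chr5:179698679-179698978, plus strand: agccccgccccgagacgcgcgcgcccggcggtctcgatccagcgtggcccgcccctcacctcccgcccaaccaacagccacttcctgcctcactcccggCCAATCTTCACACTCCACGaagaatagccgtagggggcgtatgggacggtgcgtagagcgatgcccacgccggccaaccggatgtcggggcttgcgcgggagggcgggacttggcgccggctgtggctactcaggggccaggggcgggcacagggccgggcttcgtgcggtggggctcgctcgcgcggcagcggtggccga
CRELD2, chr22:49918384-49918683, plus strand: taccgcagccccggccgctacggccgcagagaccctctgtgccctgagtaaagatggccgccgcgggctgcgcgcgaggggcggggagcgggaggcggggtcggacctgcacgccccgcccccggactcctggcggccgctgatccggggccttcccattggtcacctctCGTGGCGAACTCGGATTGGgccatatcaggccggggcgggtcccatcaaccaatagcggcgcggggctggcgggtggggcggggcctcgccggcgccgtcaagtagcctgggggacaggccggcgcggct
PDIA6, chr2:10812736-10813035, minus strand: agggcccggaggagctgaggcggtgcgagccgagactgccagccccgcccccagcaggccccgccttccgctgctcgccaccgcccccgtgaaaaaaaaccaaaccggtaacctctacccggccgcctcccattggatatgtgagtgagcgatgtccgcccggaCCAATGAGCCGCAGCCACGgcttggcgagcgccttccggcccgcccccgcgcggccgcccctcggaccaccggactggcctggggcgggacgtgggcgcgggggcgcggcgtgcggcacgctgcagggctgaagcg
The match sat at positions -151 to -133 from the start in this CANX window, -80 to -62 in CRELD2 and -86 to -68 in PDIA6. In CANX the same match fell within the windows of 3 start sites.

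The unfolded protein response element (UPRE), searched as TGACGTGG, was in windows of 253 genes (0.927%) and of 6 members: SEC23A, SEC24A, SEC62, SRP19, SSR3 and SSR4. Its reverse complement begins with CCACG, the same letters that end the ERSE. SEC23A and SSR4 are shown because they had the largest fall and the largest rise of any member with Fucotrim II. Capitals mark the element, on the printed strand in SEC23A and on the opposite strand in SSR4.
SEC23A, chr14:39103186-39103485, minus strand: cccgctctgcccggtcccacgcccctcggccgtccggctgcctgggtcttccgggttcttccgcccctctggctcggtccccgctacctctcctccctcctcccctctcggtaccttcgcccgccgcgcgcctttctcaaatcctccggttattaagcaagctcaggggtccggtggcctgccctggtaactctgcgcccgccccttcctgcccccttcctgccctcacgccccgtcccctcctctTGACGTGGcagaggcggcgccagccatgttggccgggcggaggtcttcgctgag
SSR4, chrX:153794418-153794717, plus strand: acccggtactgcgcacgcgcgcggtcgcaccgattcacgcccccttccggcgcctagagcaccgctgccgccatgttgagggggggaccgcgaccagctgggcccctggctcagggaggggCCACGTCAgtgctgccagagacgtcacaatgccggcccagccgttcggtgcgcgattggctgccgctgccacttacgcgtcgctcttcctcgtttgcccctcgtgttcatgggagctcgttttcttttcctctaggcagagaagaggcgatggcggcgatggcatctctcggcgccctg
Of the other elements searched, the ERSE-II (ATTGG, any base and CCACG) was in windows of 19 genes (0.0696%) and of 0 members. The C/EBP-ATF element (TGATG, any base and AA) was in windows of 1217 genes (4.46%), with SRPRB as the sole member. These matches describe the letters of the windows, and binding was not measured.

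In DMSO the members differed widely in level. Per kilobase of exon, the median member stood at 22.7 CPM. SRP9, an Alu-binding subunit of the signal recognition particle, was highest at 143 ± 6.60 CPM per kilobase (SD, n = 3). SRP14, its partner, followed at 87.5 ± 5.47 and CANX at 85.9 ± 1.58 CPM per kilobase. The gap between SRP14 and CANX was smaller than the SD of SRP14. The order depends on the length used: over the longest transcript PDIA3, at 188 CPM per kilobase, and CANX, at 165, lay between SRP9, at 199, and SRP14, at 160.0. At the low end stood SEC61A2, at 3.65 ± 0.186 CPM per kilobase, while its paralog SEC61A1 reached 30.5 ± 0.735 CPM per kilobase. DERL3 was listed at 0 counts in all 14 libraries, and a count of 0 allows up to 0.251 CPM in a library, counting error only. Exons of SMARCB1 overlap 77.0% of those of DERL3 on the opposite strand, and ATF6B, a widely expressed gene, was also listed at 0 throughout. What set these zeros was not tested. DERL3 was the sole member without a test, so 49 members were tested in every comparison.

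With Fucotrim I all 4 roles held more members that fell than rose. Of the 49 members tested, 34 fell and 2 rose, against 22.1% lower and 21.6% higher among all 14188 genes tested (edgeR quasi-likelihood test, Benjamini-Hochberg adjusted p under 0.05, as for all calls here). The median log2 fold change was -0.23 over the members and 0.00 over all genes. By role, 8 of 10 folding members fell (median -0.65), as did 5 of 5 degradation members (-0.32), 8 of 10 COPII members (-0.24) and 13 of 24 translocation members (-0.18). Both rises, SSR4 and SEC11A, were in translocation. With scaling to total counts alone, the counts were 38 lower and 1 higher, against 29.8% and 15.9% of all genes, and the median of all genes stood at -0.07.

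With Fucotrim II the members had both directions, in shares near those of all genes. Of the members, 11 fell and 13 rose, against 25.7% lower and 25.6% higher among 14617 genes, and the median over the members was 0.01. Folding had 5 rises and 1 fall, translocation 6 rises and 5 falls, degradation 1 rise and 0 falls, and COPII 1 rise and 5 falls. This split depended on the scaling: with total counts alone, 23 members fell and 7 rose, and the median of all genes moved to -0.15. Folding then had 4 falls and 3 rises, translocation 9 falls and 3 rises, degradation 4 falls and 1 rise, and COPII 6 falls and 0 rises. Under that scaling 37.5% of all genes were lower and 17.0% higher. The 7 rises under both scalings were SSR4, SEC11A, TRAM1, PDIA3, ERP29, CRELD2 and SYVN1. Leaving out a Fucotrim II library leaves a single one, and the counts then moved for all genes as well as for members. Of the 24 calls, 13 passed in every setting tried.

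With SGN-2FF 8 members fell and 3 rose, against 9.08% lower and 11.5% higher among 14312 genes. COPII members made up 5 of the 8 falls, and the largest change of any member with this inhibitor was 0.23 on the log2 scale. With total counts alone the counts were 17 lower and 1 higher, against 15% and 8.87% of all genes. Without DMSO replicate 3, SGN-2FF replicate 1 or SGN-2FF replicate 2 the number of falls was 3, and without SGN-2FF replicate 3 it was 12. Falls among all genes numbered 919, 798, 642 and 1414 in these settings, in that order, against 1299 with all libraries. With P-SiaFNEtoc 2 members fell and 4 rose, against 7.33% lower and 9.02% higher among 14259 genes, and 0 of 10 folding members passed the test. No call with SGN-2FF or P-SiaFNEtoc passed in every one of the settings tried. Full separation from DMSO was common among all genes. With Fucotrim I 3884 of 14188 genes had every library below DMSO and 3582 every library above, against 36 and 3 members. The counts were 4940 and 4938 of 14617 genes with Fucotrim II (18 and 18 members). They were 2778 and 2402 of 14312 with SGN-2FF (16 and 3 members), and 2448 and 2361 of 14259 with P-SiaFNEtoc (8 and 7 members).

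**Figure D1:**
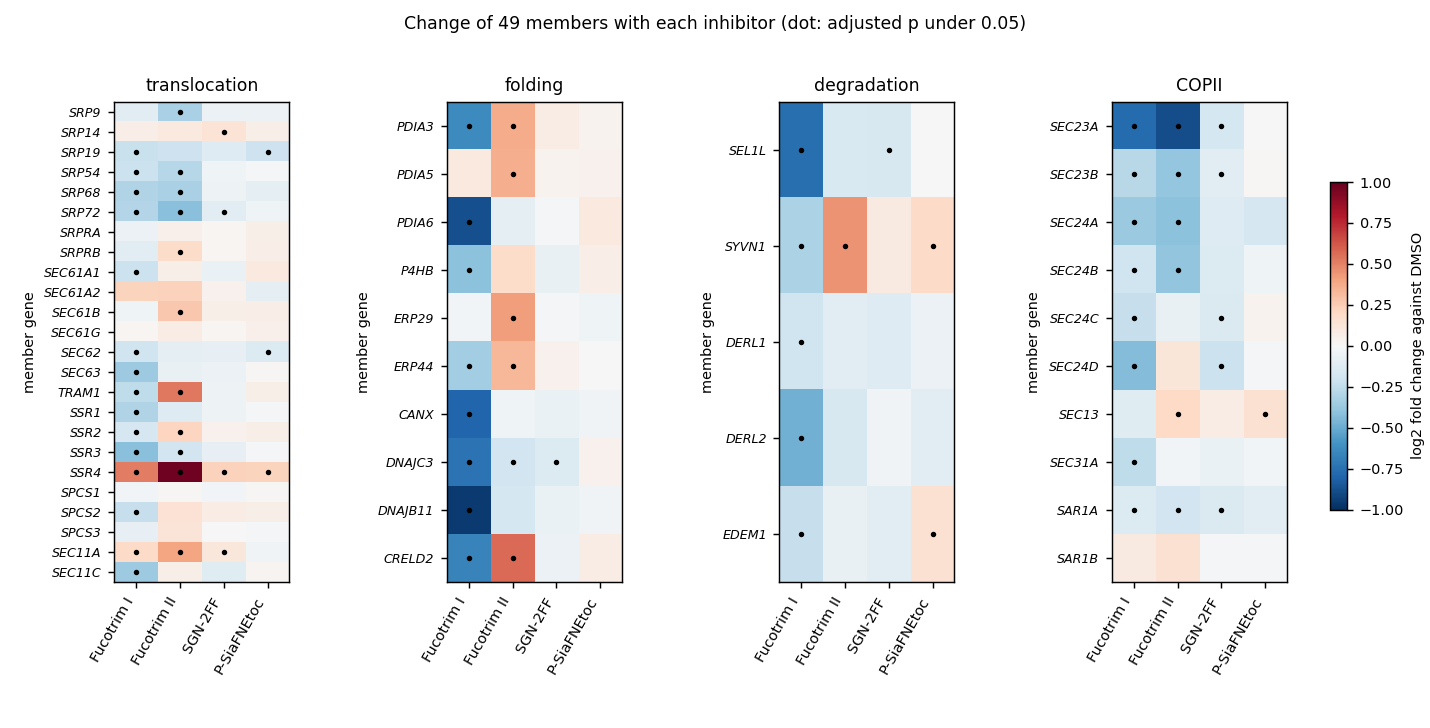
Log2 fold change of the 49 tested members (vertical axis, by role) against DMSO with each of the 4 inhibitors (horizontal axis), from blue (lower) through white to red (higher), where a dot marks an adjusted p under 0.05. The Fucotrim I column holds 34 dotted blue cells, the Fucotrim II column 13 dotted red and 11 dotted blue cells.

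Folding members carried the largest falls with Fucotrim I. DNAJB11, a J protein that hands unfolded chains to the chaperone BiP, had 147, 144 and 136 CPM in the DMSO libraries and 59.6, 77.9 and 81.5 CPM with Fucotrim I. All 3 Fucotrim I libraries lay below all DMSO libraries, and the log2 fold change was -0.96 (SE 0.09, adjusted p = 5.95e-06). PDIA6, a disulfide isomerase that also acts on the stress sensors, had 229, 220.2 and 219 CPM in DMSO and 119.8, 123 and 119 CPM with Fucotrim I. The groups did not overlap, and the fall was 1.84-fold (log2 -0.88, adjusted p = 3.36e-11). Exons of ATP6V1C2 overlap 25.2% of the PDIA6 exons on the opposite strand, and whether reads were counted by strand is not given in the sources used here.

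CANX encodes calnexin, the membrane lectin that holds glycoproteins carrying a trimmed N-glycan until they fold. It had 1186, 1203 and 1159.9 CPM in DMSO and 662, 706 and 674 CPM with Fucotrim I, with no overlap and a 1.73-fold fall (log2 -0.79, adjusted p = 5.80e-11). With Fucotrim II it had 1198 and 1107 CPM, on either side of the lowest DMSO library, and did not pass the test. DNAJC3, a J protein known as the kinase inhibitor p58IPK, had 159, 158 and 159.7 CPM in DMSO and 89.7, 102 and 92.9 CPM with Fucotrim I. It fell by 0.74 on the log2 scale (adjusted p = 3.10e-09). DNAJC3 was also the sole folding member lower with Fucotrim II (-0.19, adjusted p = 0.0272, at 144 and 135 CPM) and with SGN-2FF (-0.13, adjusted p = 0.0256, at 138, 144 and 149 CPM), and the calls with these inhibitors were each lost in 6 of 15 alternative processing settings (other scalings, filters and models, a stricter threshold, or 1 library left out).

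Other folding members went down with Fucotrim I and up with Fucotrim II, and those described next were chosen after their values were seen. CRELD2, an ER protein with disulfide isomerase activity, had 369, 325 and 367 CPM in DMSO, 221, 215 and 229 CPM with Fucotrim I and 496 and 556 CPM with Fucotrim II. The 3 groups were fully separate, in that order from Fucotrim I through DMSO to Fucotrim II, with log2 fold changes of -0.67 (adjusted p = 6.84e-09) and 0.57 (adjusted p = 0.000317). PDIA3, the isomerase that works with calnexin on glycoproteins, had 719.6, 691 and 677 CPM in DMSO. It stood at 435, 450.2 and 457 CPM with Fucotrim I and at 900.4 and 906 CPM with Fucotrim II. Again no library of 1 group entered the range of another, and the log2 fold changes were -0.63 (adjusted p = 1.82e-09) and 0.37 (adjusted p = 0.000879). ERP44, which retains unassembled cargo and oxidases by thiol exchange, changed by -0.34 and 0.34 with the pair of inhibitors (adjusted p = 8.21e-05 and 0.00332), and its rise was lost in 2 of 15 settings.

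Of the remaining folding members, P4HB, the classical protein disulfide isomerase, fell with Fucotrim I (-0.41, adjusted p = 3.46e-06) and did not pass with Fucotrim II (0.19, adjusted p = 0.0866). ERP29, an isomerase relative without the redox motif, and PDIA5 did not pass with Fucotrim I and rose with Fucotrim II, by 0.42 (adjusted p = 0.00122) and 0.37 (adjusted p = 0.00533). The summed level of the 10 folding members put these together. It was 4034, 3864 and 3892 CPM in DMSO and 2569, 2590.1 and 2609 CPM with Fucotrim I. It was 4395 and 4539.97 CPM with Fucotrim II. The SGN-2FF libraries summed to 3809, 3807 and 3817 CPM, below the DMSO range, and the P-SiaFNEtoc libraries to 3916, 3934 and 4077 CPM, which overlapped it.

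**Figure D2:**
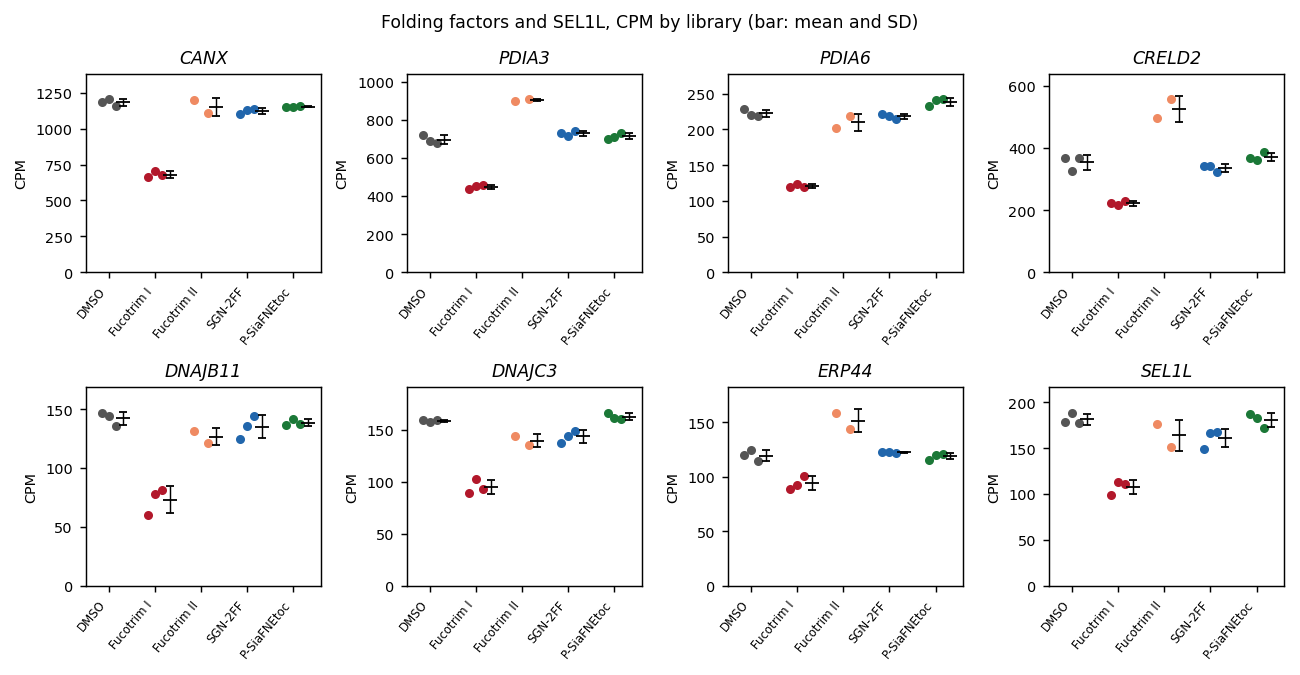
CPM per library (vertical axis, from 0) in the 5 groups for 7 folding members and the degradation adaptor SEL1L, with 1 point per library and a bar for the mean and SD. Fucotrim I points sit below all DMSO points in every panel, while Fucotrim II points sit above DMSO for PDIA3, CRELD2 and ERP44.

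The degradation members recognise misfolded chains, carry them back across the membrane and mark them with ubiquitin. SEL1L, the adaptor of the ligase SYVN1, had 179, 189 and 178 CPM in DMSO and 99.3, 113 and 111 CPM with Fucotrim I. The groups were apart by a 1.68-fold fall (log2 -0.75, adjusted p = 2.69e-09). With SGN-2FF SEL1L had 149.5, 166 and 167 CPM and fell by 0.16 (adjusted p = 0.0113, lost in 3 of 15 settings). DERL2, a derlin of the retrotranslocation channel, had 55.7, 50.7 and 52.8 CPM in DMSO and 34.4, 42.7 and 36.9 CPM with Fucotrim I (log2 -0.48, adjusted p = 3.80e-05). Its paralog DERL1 fell less (-0.20, adjusted p = 0.00406), and the difference between the paralogs was not tested.

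SYVN1, the ubiquitin ligase also called HRD1, moved in both directions. It had 124, 122 and 128 CPM in DMSO and 91.6, 102 and 106 CPM with Fucotrim I. It had 169.98 and 172 CPM with Fucotrim II and 136, 141 and 149.9 CPM with P-SiaFNEtoc. No Fucotrim I library reached the DMSO range, and the Fucotrim II and P-SiaFNEtoc libraries all exceeded it. The log2 fold changes were -0.32 (adjusted p = 0.00017), 0.45 (adjusted p = 0.000271) and 0.19 (adjusted p = 0.0027). EDEM1, the mannosidase-like protein that extracts misfolded glycoproteins, had 66.8, 70.4 and 70.0 CPM in DMSO. It stood at 61.0, 59.98 and 54.8 CPM with Fucotrim I (-0.23, adjusted p = 0.00396) and at 78.9, 76.4 and 74.4 CPM with P-SiaFNEtoc (0.15, adjusted p = 0.0255, lost in 7 of 15 settings).

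The COPII inner coat was lower with all 3 fucosylation inhibitors in part or in whole. Of its 6 genes, SEC23A and SEC23B shape the coat and SEC24A to SEC24D choose the cargo. All 6 fell with Fucotrim I, 4 with Fucotrim II, 4 with SGN-2FF and 0 with P-SiaFNEtoc. Among all genes 22.1%, 25.7%, 9.08% and 7.33% fell, in the same order. With SGN-2FF the call was lost in 9 of 15 settings for SEC23B, 3 for SEC24D, 2 for SEC24C and 1 for SEC23A. Since the DMSO libraries are shared, the falls are given side by side and not as separate evidence.

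SEC23A had 86.6, 85.3 and 82.5 CPM in DMSO and 51.1, 54.4 and 43.1 CPM with Fucotrim I. It had 47.8 and 44.1 CPM with Fucotrim II and 73.6, 74.7 and 75.7 CPM with SGN-2FF. All treated libraries of these 3 groups lay below DMSO, and the 85.2, 85.6 and 84.1 CPM with P-SiaFNEtoc lay within its range. The log2 fold changes were -0.77 (adjusted p = 3.96e-08) with Fucotrim I, -0.89 (adjusted p = 2.22e-05) with Fucotrim II and -0.17 (adjusted p = 0.0099) with SGN-2FF. SEC23B had 184, 181 and 178 CPM in DMSO, 155, 144 and 149 CPM with Fucotrim I and 135 and 144 CPM with Fucotrim II. It fell by 0.28 (adjusted p = 0.000154) and by 0.38 (adjusted p = 0.000754), each a smaller value than for SEC23A, and the difference between the paralogs was not tested.

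Among the cargo adaptors, SEC24A and SEC24B, which form a related pair, fell with both Fucotrims. SEC24A had 55.7, 58.4 and 54.4 CPM in DMSO, 43.2, 46.9 and 40.0 CPM with Fucotrim I (-0.37, adjusted p = 0.000179) and 45.6 and 39.1 CPM with Fucotrim II (-0.41, adjusted p = 0.00295). The treated libraries all lay below DMSO. SEC24B changed by -0.20 (adjusted p = 0.0135) and -0.39 (adjusted p = 0.00332), and its call with Fucotrim I was lost in 4 of 15 settings. SEC24C and SEC24D, the other related pair, fell with Fucotrim I and SGN-2FF and did not pass with Fucotrim II. SEC24D had 43.3, 41.6 and 45.4 CPM in DMSO, 32.8, 33.2 and 29.7 CPM with Fucotrim I (-0.44, adjusted p = 4.68e-05) and 39.3, 36.7 and 35.6 CPM with SGN-2FF (-0.21, adjusted p = 0.0142). Its Fucotrim II libraries, at 47.5 and 47.3 CPM, lay above all DMSO libraries (0.12, adjusted p = 0.187). A transcript on the opposite strand overlaps 42.8% of the SEC24C exons.

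The outer coat and the GTPases each held genes that passed and genes that did not. SEC31A, a rod of the outer cage, fell with Fucotrim I (-0.26, adjusted p = 0.00152), while SEC13, its partner and also a nuclear pore subunit, did not pass there. SEC13 rose with Fucotrim II (0.20, adjusted p = 0.0324, lost in 9 of 15 settings) and P-SiaFNEtoc (0.15, adjusted p = 0.021, lost in 6 of 15). SAR1A, the GTPase that starts coat assembly, had 125, 122 and 130.1 CPM in DMSO against 112, 116 and 116 CPM with Fucotrim I, 109.95 and 111 CPM with Fucotrim II and 113, 112 and 115 CPM with SGN-2FF. Every one of those treated libraries lay below DMSO, by -0.13, -0.19 and -0.14 on the log2 scale (adjusted p = 0.0423, 0.0289 and 0.0222), calls that were lost in 7, 6 and 4 of 15 settings. The P-SiaFNEtoc libraries, at 114, 118 and 118 CPM, also lay below DMSO without passing (-0.11, adjusted p = 0.0869). Its paralog SAR1B did not pass with any inhibitor, with log2 fold changes from -0.02 to 0.15.

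**Figure D3:**
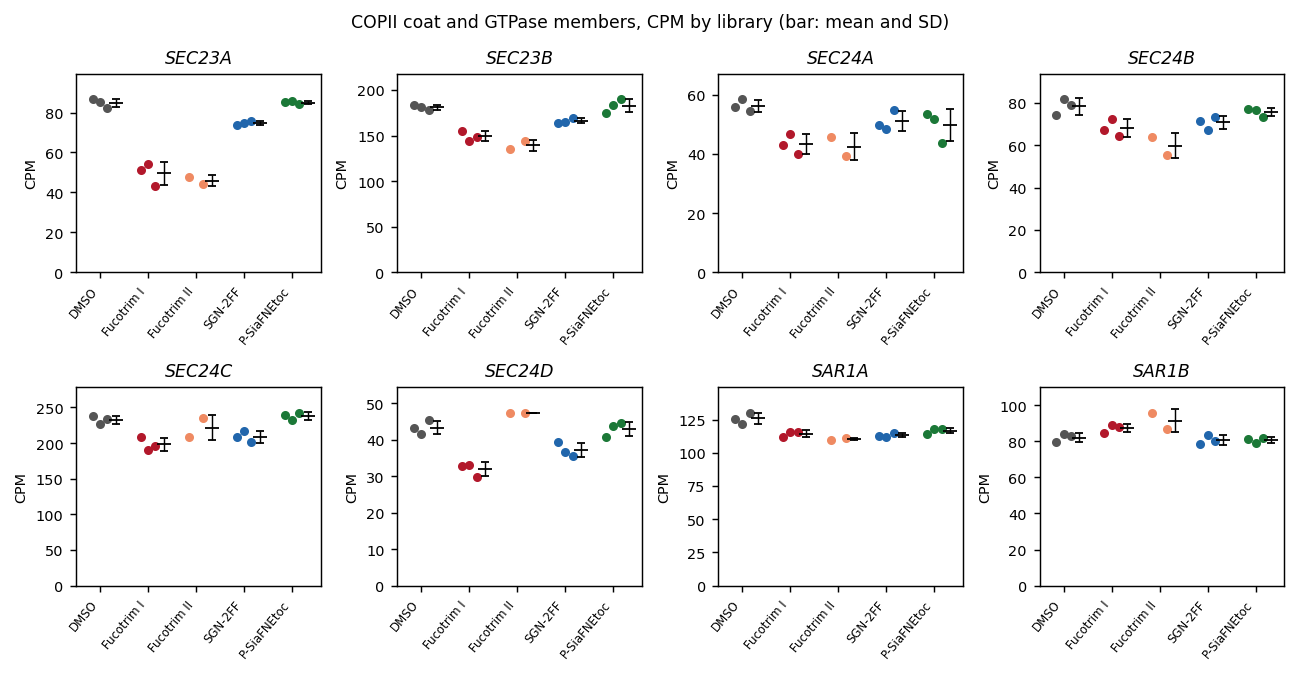
CPM per library (vertical axis, from 0) in the 5 groups for the 6 inner coat genes and the GTPases SAR1A and SAR1B, with 1 point per library and a bar for the mean and SD. SEC23A points drop from 82.5 to 86.6 CPM in DMSO to 43.1 to 54.4 CPM with the Fucotrims, while SEC24D is lower with Fucotrim I and SGN-2FF alone.

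Translocation members are taken complex by complex. Of the 6 proteins of the signal recognition particle, 4 fell with Fucotrim I and 4 with Fucotrim II, and 0 rose with either. Among all genes 22.1% and 25.7% fell. SRP72, which pairs with SRP68 in the particle, had 216, 223 and 220.3 CPM in DMSO. It stood at 176, 182 and 179.7 CPM with Fucotrim I (-0.29, adjusted p = 5.44e-05) and at 166 and 165 CPM with Fucotrim II (-0.42, adjusted p = 0.000373). The groups were separate. SRP68 changed by -0.30 and -0.32, and SRP54, the GTPase that binds the signal sequence, by -0.21 and -0.28, and all 4 values passed. SRP19, which helps SRP54 join the RNA, fell with P-SiaFNEtoc (-0.21, adjusted p = 0.0168), from 42.4, 39.2 and 39.6 CPM in DMSO to 33.4, 36.2 and 35.5 CPM. This was the largest fall of any member with that inhibitor, and the call was lost in 5 of 15 settings. SRP14 rose with SGN-2FF (0.13, adjusted p = 0.0394), although its groups overlapped and the call was lost in 9 of 15 settings.

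The 4 subunits of the TRAP complex, which sits beside the Sec61 channel, did not move together. SSR1 and SSR3 fell with Fucotrim I, by 0.30 (adjusted p = 7.96e-05) and 0.42 (adjusted p = 1.81e-06). SSR3 had 181, 186 and 181 CPM in DMSO and 133, 143 and 133 CPM with Fucotrim I, with no overlap. SSR2 fell with Fucotrim I (-0.17, adjusted p = 0.0058) and rose with Fucotrim II (0.21, adjusted p = 0.0228), a rise that was lost in 7 of 15 settings. SSR4 went the other way from SSR1 and SSR3. It had 131, 131 and 139.98 CPM in DMSO, 212, 165 and 197 CPM with Fucotrim I and 244 and 284 CPM with Fucotrim II. The SGN-2FF libraries had 168, 157 and 142 CPM and the P-SiaFNEtoc libraries 151, 149.8 and 168 CPM. All 11 treated libraries exceeded all 3 DMSO libraries, and SSR4 was the largest rise of any member with each inhibitor. The log2 fold changes were 0.52 (adjusted p = 2.80e-05), 0.97 (adjusted p = 1.93e-05), 0.23 (adjusted p = 0.00164) and 0.23 (adjusted p = 0.000963), in the order Fucotrim I, Fucotrim II, SGN-2FF and P-SiaFNEtoc. These 4 values rest on the same DMSO libraries. IDH3G overlaps 5.85% of the SSR4 exons on the opposite strand.

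The catalytic subunits of signal peptidase diverged as well. SEC11A had 246, 239 and 240.4 CPM in DMSO, 271, 278 and 277 CPM with Fucotrim I (0.19, adjusted p = 0.00211) and 318 and 319.6 CPM with Fucotrim II (0.39, adjusted p = 0.000425). Its paralog SEC11C had 97.7, 89.6 and 90.2 CPM in DMSO and 73.8, 72.4 and 68.8 CPM with Fucotrim I (-0.36, adjusted p = 4.14e-05). With Fucotrim I the SEC11A libraries lay above and the SEC11C libraries below their DMSO ranges. The SEC11A call with Fucotrim I was lost in 1 of 15 settings, the scaling to total counts alone. Of the other subunits, SPCS2 fell with Fucotrim I (-0.23, adjusted p = 0.00587), and SPCS1 and SPCS3 did not pass with any inhibitor. Exons of GLT8D1 and NEK4 cover 56.6% of those of SPCS1 on the opposite strand.

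At the channel itself, SEC61A1, SEC62, SEC63 and TRAM1 fell with Fucotrim I, and SEC61B and SEC61G did not pass. The call of SEC62 was lost in 3 of 15 settings. SEC63, the J protein that recruits BiP to the channel, had 92.0, 92.3 and 89.9 CPM in DMSO and 66.6, 77.4 and 69.0 CPM with Fucotrim I (-0.36, adjusted p = 7.94e-05). The channel paralogs SEC61A1 and SEC61A2 gave -0.22 (adjusted p = 0.00157) and 0.22 (adjusted p = 0.0816), and SEC61A2 had at most 323 counts in a library. TRAM1, a membrane protein beside the channel chosen here after its values were seen, had 98.2, 107 and 108 CPM in DMSO. It had 87.8, 92.6 and 81.9 CPM with Fucotrim I (-0.25, adjusted p = 0.00198) and 158 and 145 CPM with Fucotrim II (0.53, adjusted p = 0.0003), so DMSO lay between the treated groups. The SRP receptor showed a single call with any inhibitor, SRPRB with Fucotrim II (0.18, adjusted p = 0.0345), and this call was lost in 10 of 15 settings.

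**Figure D4:**
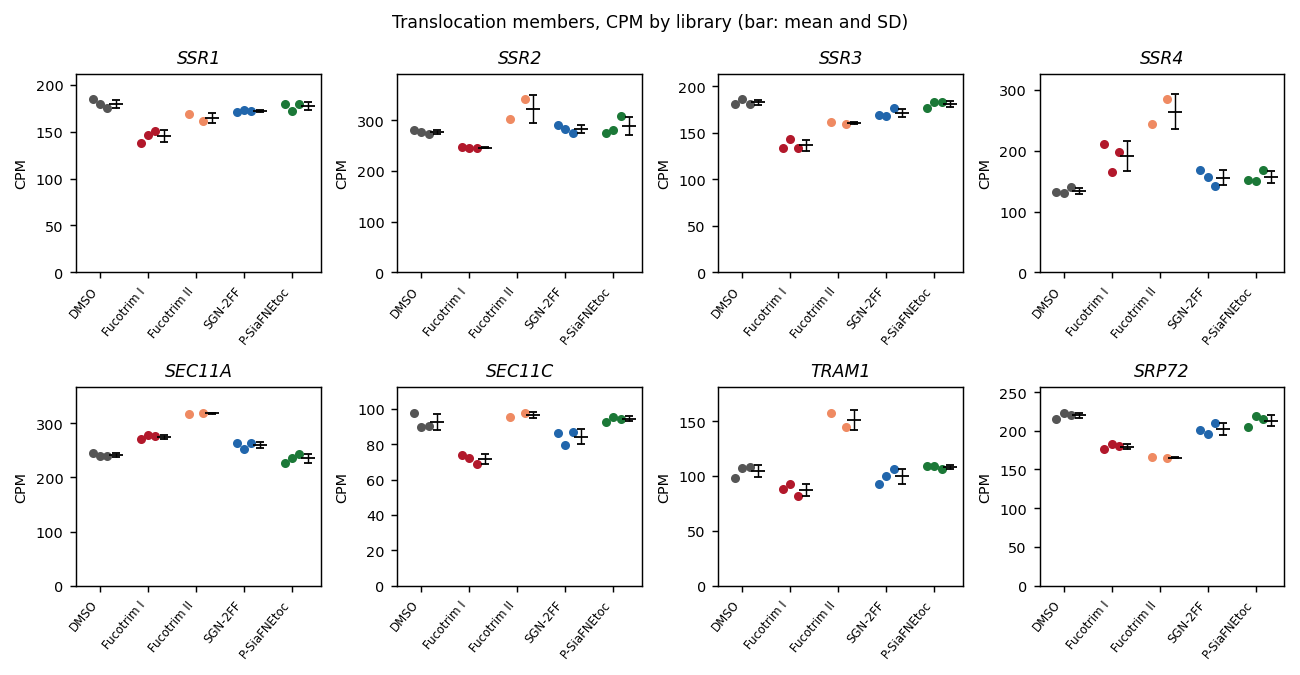
CPM per library (vertical axis, from 0) in the 5 groups for the 4 TRAP subunits, the signal peptidase paralogs SEC11A and SEC11C, TRAM1 and SRP72, with 1 point per library and a bar for the mean and SD. SSR4 points rise from 131 to 139.98 CPM in DMSO to 244 and 284 CPM with Fucotrim II, while SSR3 and SRP72 points fall.

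Fucotrim II and Fucotrim I libraries were also compared directly, without DMSO. The doses were 60 μM and 30 μM, so compound and dose cannot be told apart. Of the members, 20 were higher with Fucotrim II and 0 lower, against 6.04% higher and 3.46% lower among 14378 genes. The median log2 difference was 0.24 over the members and 0.00 over all genes. Folding accounted for 9 of the 20 and had a median of 0.72, degradation for 2, COPII for 2 and translocation for 7. With total counts alone, 3.89% of all genes were higher and 9.42% lower, and their median was -0.10. Folding then had 9 members higher, degradation 2, COPII 1 and translocation 4, and 1 translocation member was lower. CRELD2 differed most (1.25, SE 0.08, adjusted p = 3.38e-06), followed by PDIA3 (1.01, SE 0.08, adjusted p = 8.28e-06). PDIA6, DNAJB11, TRAM1, SYVN1 and CANX differed by 0.76 to 0.80, with adjusted p from 7.57e-05 to 0.00116. Without Fucotrim I replicate 3, 11 members were higher, and so were 233 of 14399 genes, against 869 of 14378 genes with all libraries.

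The inner coat and the signal recognition particle looked different in this direct contrast. All 6 proteins of the particle failed to pass, with log2 differences from -0.21 to 0.04. SEC23A differed by -0.11 (SE 0.11, adjusted p = 0.551), SEC23B by -0.10 (SE 0.08, adjusted p = 0.464), SEC24A by -0.04 (SE 0.10, adjusted p = 0.867) and SEC24B by -0.19 (SE 0.10, adjusted p = 0.232). These p-values do not show that the inhibitors act alike. SEC24D was the inner coat exception, higher with Fucotrim II by 0.57 (adjusted p = 0.00258).

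**Figure D5:**
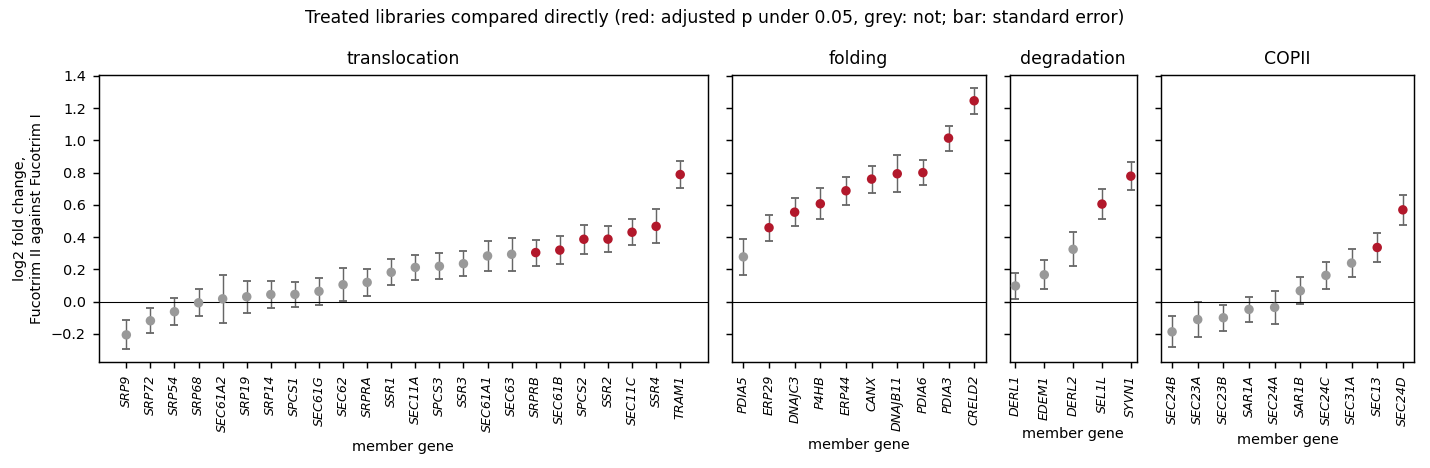
Log2 fold change of Fucotrim II against Fucotrim I (vertical axis) for the 49 tested members, ordered within each role, with bars for the standard error and red for an adjusted p under 0.05. Of the 10 folding members 9 are red, between 0.46 and 1.25, while signal recognition particle members lie at the left, between -0.21 and 0.04.

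Genes that work with the members were read from lists set by function. Among all genes 22.1% fell and 21.6% rose with Fucotrim I, and 25.7% and 25.6% with Fucotrim II. The shares were 9.08% and 11.5% with SGN-2FF, and 7.33% and 9.02% with P-SiaFNEtoc. Of 13 ER lumenal chaperones tested, 9 fell and 1 rose with Fucotrim I (median -0.64), and 1 fell and 7 rose with Fucotrim II (median 0.28). HSPA5, the central chaperone BiP and the partner of DNAJB11, DNAJC3 and SEC63, fell by 1.47 with Fucotrim I (adjusted p = 0.000101) and by 0.30 with Fucotrim II (adjusted p = 0.00423). HSP90B1, the chaperone GRP94, fell by 1.23 with Fucotrim I (adjusted p = 1.47e-12), and CALR, the soluble counterpart of calnexin, by 1.14 (adjusted p = 7.15e-13). With SGN-2FF 1 of the 13 fell and 1 rose, and with P-SiaFNEtoc 0 fell and 2 rose.

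Next to the disulfide isomerases, 7 of 16 other ER oxidoreductases fell and 4 rose with Fucotrim I, and PDIA4 fell most (-1.19, adjusted p = 5.65e-12). With Fucotrim II 3 fell and 4 rose, with SGN-2FF 2 fell and 1 rose, and with P-SiaFNEtoc 2 fell and 0 rose. Next to SEL1L and SYVN1, 7 of 20 other degradation genes fell and 3 rose with Fucotrim I, with HERPUD1, a scaffold of the same ligase, lowest (-1.17, adjusted p = 2.38e-11). The counts with Fucotrim II were 3 and 5, with SGN-2FF 2 and 2, and with P-SiaFNEtoc 0 and 1.

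The oligosaccharyltransferase, which adds N-glycans beside the channel, had 8 of 12 genes lower and 1 higher with Fucotrim I. MAGT1, an oxidoreductase subunit of the STT3B complex, fell most (-0.71, adjusted p = 1.64e-09). With Fucotrim II 2 fell and 4 rose, with SGN-2FF 3 fell and 1 rose, and with P-SiaFNEtoc 0 fell and 1 rose. Other routes of membrane insertion, the EMC and GET proteins, had 1 of 15 genes lower and 1 higher with Fucotrim I, 2 and 1 with Fucotrim II, 0 and 0 with SGN-2FF and 1 and 0 with P-SiaFNEtoc.

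Around the COPII coat, 15 of 26 assembly factors and cargo receptors fell and 4 rose with Fucotrim I. MCFD2, the partner of the cargo receptor LMAN1, fell by 0.68 (adjusted p = 4.14e-08) and LMAN1 by 0.45 (adjusted p = 2.10e-06). With Fucotrim II 5 fell and 6 rose, with SGN-2FF 6 fell and 2 rose, and with P-SiaFNEtoc 1 fell and 3 rose. Of 13 genes of the COPI coat and the KDEL receptors, which run the return route, 7 fell and 0 rose with Fucotrim I, 5 fell and 5 rose with Fucotrim II, 1 fell and 0 rose with SGN-2FF, and 0 fell and 1 rose with P-SiaFNEtoc.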

How the data were processed

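RNA of CWR22Rv1 cells was sequenced from TruSeq Stranded mRNA libraries. The authors used Cutadapt for trimming, HISAT2 for alignment against hg38 and featureCounts for counting, and deposited raw counts per Entrez gene. There was a table for each inhibitor, and each table held the DMSO libraries again. Annotation and strand setting of the counting are not given in the sources used here. The DMSO counts were identical across tables in the 27819 shared genes.

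Each inhibitor was fitted with DMSO in edgeR 4.0.16 (R 4.3.3; limma 3.58.1): filterByExpr with a minimum count of 10 and a minimum total of 15, TMM scaling, robust quasi-likelihood test, Benjamini-Hochberg adjustment over all genes tested and a threshold of 0.05. A further fit compared Fucotrim II with Fucotrim I. CPM shown were scaled by TMM over all 14 libraries. The labels call the samples biological repeats, and the p-values set each difference against the spread between these samples. That spread was unequal. The chi-square per gene between 2 libraries of a group was 1.76 to 4.21 in DMSO and 1.57 to 2.68 with SGN-2FF. It was 1.96 to 3.46 with P-SiaFNEtoc, 5.43 to 16.9 with Fucotrim I and 23.5 with Fucotrim II.

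Alternatives were DESeq2 1.42.0 size factors and test, limma-voom, total-count scaling, no filter, at least 10 counts in every library, a threshold of 0.01, a replicate block, a joint fit of the 14 libraries and leaving out each library. Members and lists were chosen with earlier results of these data known. Any member could be named. Values per library are given for the 4 largest calls per role with Fucotrim I, the largest rise and fall with each other inhibitor, paralogs, and members picked after their values were seen, as stated there. Exon overlaps come from GENCODE on hg38.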

Additional observations from a re-analysis of the deposited data

Results flagged for a closer look

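Of the members, 6 stood out because they were lower than DMSO with Fucotrim I and higher than DMSO with Fucotrim II. Each also had to pass in the direct contrast (edgeR, Benjamini-Hochberg). That call was part of the choice and uses the same Fucotrim libraries, so the p-values given next are not separate evidence. The log2 difference of Fucotrim II against Fucotrim I was 1.25 for CRELD2 (adjusted p = 3.38e-06), 1.01 for PDIA3 (adjusted p = 8.28e-06), 0.79 for TRAM1 (adjusted p = 0.000154), 0.78 for SYVN1 (adjusted p = 0.000165), 0.69 for ERP44 (adjusted p = 0.000427) and 0.39 for SSR2 (adjusted p = 0.0105). The doses differed, at 60 μM and 30 μM, so compound and dose cannot be told apart. The difference for SSR2 lost its call in 4 of 15 settings.

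Both SYVN1 and EDEM1 stood out because every Fucotrim I library lay below the DMSO range and every P-SiaFNEtoc library above it. With Fucotrim I the log2 fold change was -0.32 for SYVN1 and -0.23 for EDEM1, and with P-SiaFNEtoc it was 0.19 and 0.15. The difference between these inhibitors was not tested.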

How the results depend on the processing

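Over the settings tried, 31 of 36 calls with Fucotrim I, 13 of 24 with Fucotrim II, 0 of 11 with SGN-2FF, 0 of 6 with P-SiaFNEtoc and 9 of 20 in the direct contrast passed throughout, and 0 calls changed direction. Of the 148 values that did not pass in the 5 comparisons, 23 changed sign with total counts alone.

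The counts of members that moved are given as lower, then higher. Total counts alone gave 1 higher with Fucotrim I, 23 and 7 with Fucotrim II, 17 and 1 with SGN-2FF, and 1 lower in the direct contrast. The DESeq2 test gave 1 higher with SGN-2FF and 0 lower with P-SiaFNEtoc, and an adjusted p under 0.01 gave 1 and 1, and 0 and 2. A joint fit of the 14 libraries gave 2 and 0 with SGN-2FF, 0 and 0 with P-SiaFNEtoc and 1 lower in the direct contrast. Leaving out each library gave 30 to 36 and 2 to 3 with Fucotrim I, 8 to 17 and 9 to 16 with Fucotrim II, 3 to 12 and 1 to 3 with SGN-2FF, 0 to 2 and 2 to 4 with P-SiaFNEtoc, and 0 to 2 and 11 to 23 in the direct contrast. The numbers of all genes called moved in these settings too, and the cause of these moves was not tested.

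Whether the replicate numbers pair the samples was not settled. Correlations of deviations ran from -0.355 to 0.332 over all pairs. They were 0.18, 0.194 and 0.0299 for Fucotrim I with DMSO. By the numbers of the library names they were 0.302 and 0.1 for Fucotrim II with DMSO. Deviations within so small a group depend on each other, so these values cannot decide it. A replicate block by the numbers of the titles gave 6 lower and 7 higher with Fucotrim II and 9 higher in the direct contrast. A block by the numbers of the library names, which differ for Fucotrim II, gave 11 and 11, and 1 and 23. Among all genes the block by titles gave 2504 lower and 2796 higher with Fucotrim II, and 93 and 265 in the direct contrast. The block by library names gave 3856 and 3923, and 1261 and 1549. Without a block the direct contrast had 497 and 869. With 1 mismatch allowed, the ERSE matched 6 members and 517 of 27305 genes (1.89%). Over the longest transcript in place of the exon union, the median member stood at 35.6 CPM per kilobase.

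With 2 libraries, Fucotrim II has the least replication of the groups, and a change that missed the threshold there was not detectable at this depth and number. The split of rises and falls with Fucotrim II and SGN-2FF changes with the scaling, as do the shares of all genes called in the direct contrast.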

Other observations

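The sensors and regulators of the secretory pathway were described by a further list, of which 10 of 11 genes were tested. With Fucotrim I 5 fell and 2 rose, with Fucotrim II 1 fell and 3 rose, with SGN-2FF 1 fell and 2 rose, and with P-SiaFNEtoc 1 fell and 2 rose (edgeR, Benjamini-Hochberg). XBP1, the transcription factor spliced by the sensor ERN1, changed by -0.25 with Fucotrim I (adjusted p = 0.000647) and by 0.35 with Fucotrim II (adjusted p = 0.00122). Gene counts do not separate its spliced from its unspliced form. ATF6 and ERN1 did not pass with any inhibitor, and EIF2AK3, the sensor PERK, fell with Fucotrim I (-0.25, adjusted p = 0.0293).

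The CREB3 family, membrane-bound factors known to control secretory genes, held both directions. CREB3L2 fell with Fucotrim I (-0.70, adjusted p = 3.55e-09) and did not pass with the other inhibitors. CREB3L4 rose with all 4 inhibitors, by 0.83 with Fucotrim I, 0.96 with Fucotrim II, 0.56 with SGN-2FF and 0.36 with P-SiaFNEtoc. CREB3L1 rose by 0.54, 1.03, 1.03 and 0.87 in the same order, from 103 to 139 counts per library in DMSO. The 4 comparisons share their DMSO libraries.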
